A study of Mus musculus with 6 samples.

Results

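The genes described here are 41 genes of DNA replication and S phase, chosen by symbol from a table of 24559 genes measured by RNA sequencing. They cover origin licensing, helicase activation, priming and synthesis, the sliding clamp and its loader, Okazaki fragment joining, chromatin assembly, deoxynucleotide supply and G1/S control. The cells were CD8+ T cells, lymphocytes that kill virus-infected and tumour cells, from spleens of C57 BL/6 wild-type mice and held as a primary culture. For 3 libraries the cells had received L-4F, a mimetic peptide of the lipoprotein component apolipoprotein A1, and for the other 3 they had received ABCT buffer. The sources used here give no dose, time, culture conditions or age of the mice. They also leave unsaid whether replicate libraries stem from different animals or cultures, so each p-value measures only library-to-library spread, which may be technical. The comparison addresses how RNA levels of these cells differ after the mimetic peptide. It measures neither apolipoprotein A1 itself nor the immune functions of the cells.

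Before S phase, the origin recognition complex with CDC6 and CDT1 loads rings of the proteins MCM2 to MCM7 onto DNA. CDC45 and the GINS complex join these rings to form the active helicase, primase with DNA polymerase alpha starts each new strand, and polymerases epsilon and delta extend it while held by the PCNA clamp. Resting T cells carry little of this machinery and make it when antigen and cytokine signals drive them into division. Many of these genes are targets of E2F transcription factors, whose binding sites lie close to the start of transcription.

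For this reason the promoters were searched for 4 words of the E2F site, TTTCCCGC, TTTGGCGC, TTTCGCGC and TTTGCCGC, on both strands. The windows ran from 250 bases before to 50 after each annotated start (RefSeq, GRCm38.p6) and were found for 33 of the 41 genes. At least 1 word was present for 13 of these 33 genes. It was present in 34.2% of their 38 windows and in 2.26% of the 32851 windows of all genes. Overlapping matches on opposite strands were possible, since the letters of 1 word partly mirror those of another. The 4 stretches below show such matches in genes that rose with L-4F (Mcm6, Gins3, Rfc3) and in 1 that was not called (Orc1). Each is the 120 bases just before the annotated start, 5′ to 3′ on the gene's strand, with the matches in capitals.
Mcm6 (chr1:128359706-128359825, minus strand): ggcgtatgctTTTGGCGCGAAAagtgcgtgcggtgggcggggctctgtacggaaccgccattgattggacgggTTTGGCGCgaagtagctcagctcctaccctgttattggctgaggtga
Gins3 (chr8:95633439-95633558, plus strand): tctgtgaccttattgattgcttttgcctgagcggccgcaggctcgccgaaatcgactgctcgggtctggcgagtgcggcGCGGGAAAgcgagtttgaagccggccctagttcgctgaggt
Rfc3 (chr5:151651209-151651328, minus strand): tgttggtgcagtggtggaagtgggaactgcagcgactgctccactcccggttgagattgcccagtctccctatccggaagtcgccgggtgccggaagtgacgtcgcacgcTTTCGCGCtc
Orc1 (chr4:108579334-108579453, plus strand): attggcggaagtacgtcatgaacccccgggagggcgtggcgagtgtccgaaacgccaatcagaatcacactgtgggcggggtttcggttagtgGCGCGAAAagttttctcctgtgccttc

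In GENCODE M21 (GRCm38) the genes called higher in every setting tried are Mcm6 (ENSMUSG00000026355, chr1:128331590-128359664), Gins1 (ENSMUSG00000027454, chr2:150905400-150931280), Pcna (ENSMUSG00000027342, chr2:132249162-132253314), Rfc2 (ENSMUSG00000023104, chr5:134581366-134601805), Slbp (ENSMUSG00000004642, chr5:33634952-33652574) and Tyms (ENSMUSG00000025747, chr5:30058202-30073617). Pole, the gene that fell most, is ENSMUSG00000007080 (chr5:110286306-110337474). Among the stretches printed above, that of Mcm6 held 3 matches, 2 of them overlapping, and those of Gins3, Rfc3 and Orc1 held 1 each. A match was found for 4 of the 11 genes called higher that had a window, for 2 of 3 called lower and for 7 of 19 not called. Matches thus occurred in genes of all 3 kinds. For comparison, the word CCAAT, read on both strands, was present in 57.9% of these genes' windows and in 37.4% of all windows. These matches describe letters and do not show binding.

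Each library held between 25073292 and 31332003 reads. All values below are normalized counts, that is reads divided by the authors' library factor, and all 41 genes passed the filter of at least 10 normalized counts in at least 3 libraries. Genes with an adjusted p under 0.05 were called (limma with Benjamini-Hochberg adjustment over 14922 tested genes). The marker genes of CD8+ T cells summed to 97557 to 98186 normalized counts in the buffer libraries and 111432 to 115604 with L-4F, and Cd4 was at 44.3 to 49.3 with buffer and 23.9 to 32.3 with L-4F, called lower (adjusted p = 0.0294). Of the 8 CD8+ T cell markers 6 stayed called higher with each of the length trends described below removed. Trac was called higher, but not with any of these trends removed. Cd3e was not called, and was called lower with the protein-coding length trend removed. Low sums of some other cell types differed between the groups, though not every gene of a list moved. The 5 natural killer markers summed to 1094 to 1206 with buffer and 1309 to 1357 with L-4F. Of these Klrb1c and Klre1 were called higher. Klrb1c was not called with any of the length trends removed, nor was Klre1 with that of the protein-coding length. Ncr1, Klra8 and Klri2 were not called, and the mean of Klri2 was 142 with buffer and 119 with L-4F. The 6 B cell markers summed to 221 to 262 and 309 to 338, and the 7 erythroid markers to 226 to 256 and 324 to 362. Among the B cell markers only Cd79b was called (means 187 with buffer and 269 with L-4F). The erythroid genes called higher, Hba-a1 and Hbb-bs, were not called with any of the length trends described below removed. The 7 macrophage and monocyte markers overlapped between the groups (1474 to 1713 and 1536 to 1613), as did the summed level of the 3 CD4+ T cell markers, Cd4 among them (644 to 704 and 617 to 674), and the 4 measured dendritic cell markers summed to 92.5 to 111 and 70.5 to 86.3. Of the dendritic cell markers Zbtb46 was called lower (means 87.5 and 55.3), also with each length trend removed, and Clec9a was not called. None of the measured markers was at 0 in all libraries, though the B cell markers Pax5 and Ebf1 were at 0 in several. The part of these cells in the results below was not tested. In RNA from a whole culture, a changed share of cells in S phase and a changed amount of RNA per cell cannot be told apart.

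The replication genes were abundant in both groups and changed little. Their median over the 6 libraries was 2321 normalized counts, against 587 for all tested genes, and 40 of the 41 lay above the latter. Together they took 0.568% to 0.570% of the reads in the buffer libraries and 0.581% to 0.584% with L-4F. Of the 41 genes 15 were called higher with L-4F (36.6%, background 18.4% of all tested genes) and 5 lower (12.2%, background 19.7%), and 21 were not called. The median log2 fold change was 0.08 over the 41 genes and 0.00 over all tested genes. The median size of a called change was 0.20 on the log2 scale, against 0.27 over all called genes. All 3 L-4F libraries lay above all 3 buffer libraries for 20 of the genes (background 23.2%) and below them for 7 (background 24.4%, and 47.6% for both directions together). With median centring of the libraries the split of calls was 14 higher and 8 lower, and with quantile normalization 17 and 2. These settings also moved the median log2 fold change of all tested genes, to -0.04 and 0.01. By the FDR in the authors' deposited table, 15 of these genes were higher and 5 lower at an FDR under 0.05 (background 10.2% and 11.0% of all 24559 genes), the same 20 genes in the same directions. That background includes genes below the filter used here, so it cannot be set beside the 18.4% and 19.7%.

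**Figure D1:**
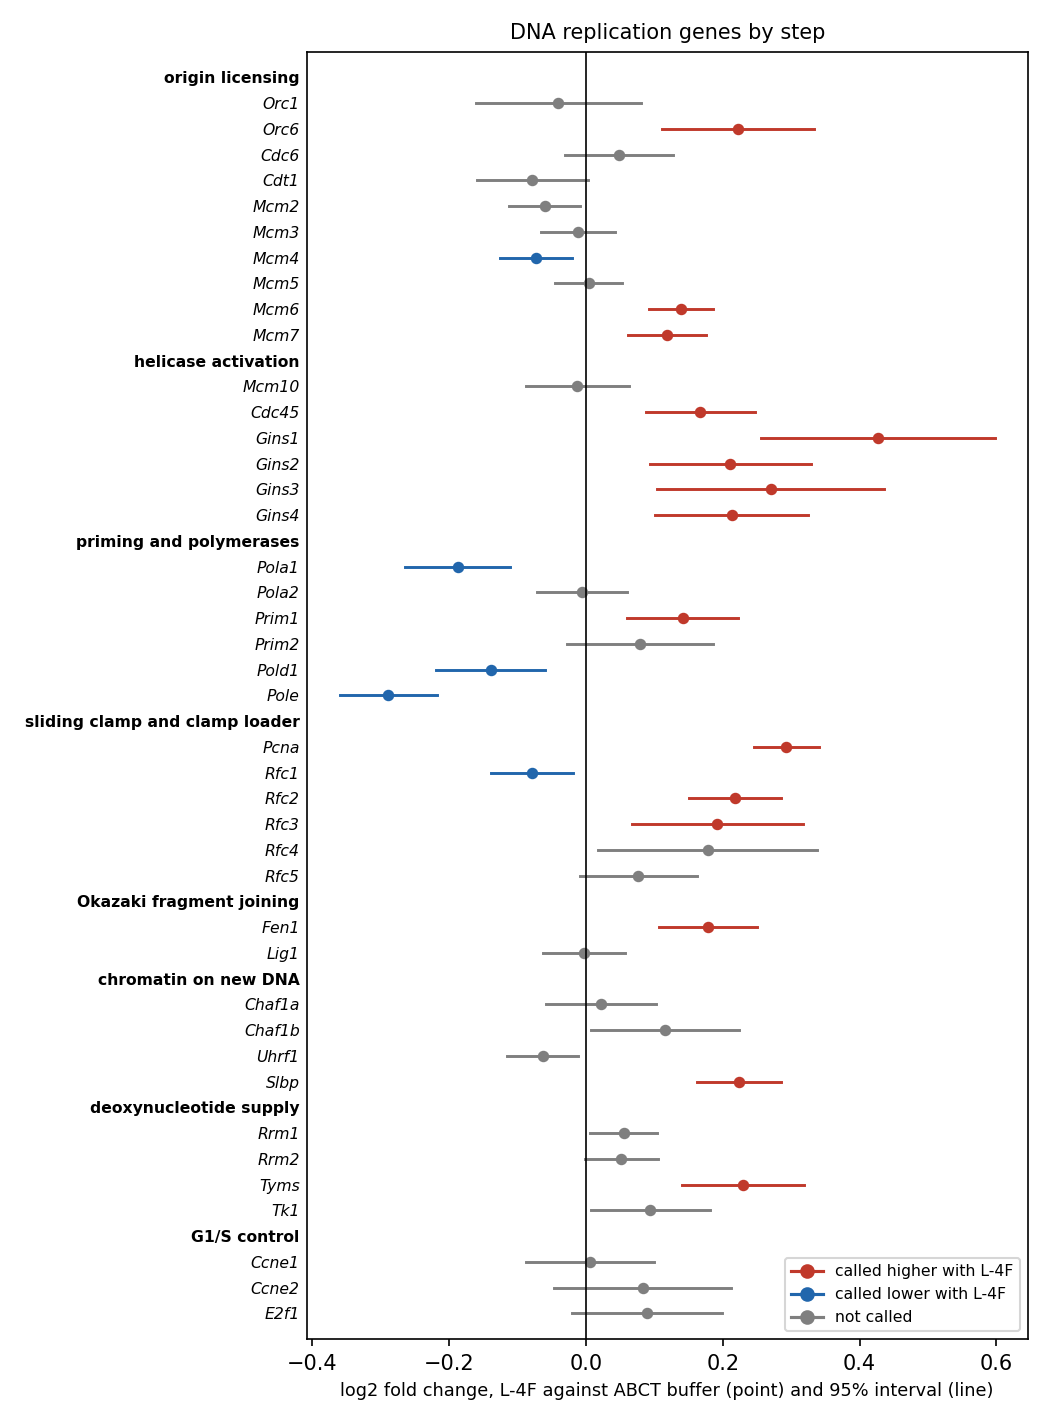
Log2 fold change of each of the 41 genes, L-4F against buffer (horizontal axis; point, estimate; line, 95% interval; 3 libraries per group), grouped by replication step. GINS genes, Pcna and the small clamp loader genes lie to the right of 0, and Pola1, Pold1 and Pole to the left.

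Length was related to the change of these genes in the same direction as across the transcriptome. Between log2 fold change and the log2 length of the longest protein-coding transcript, Pearson's r over the 41 genes was -0.63 (Spearman's rho -0.57), a description across genes measured in the same 6 libraries. Over 14910 tested genes Pearson's r was -0.29 and Spearman's rho -0.47. The 15 genes called higher had a median length of 2143 nt (1087 to 4995) and the 5 called lower 4751 nt (3454 to 7163). To show what remained, a smooth length trend over all tested genes was removed from each library. This was done with the longest transcript, the longest protein-coding transcript or the summed exons as the length. With the protein-coding length 14 of the 41 genes were called higher (background 12.9%) and 2 lower (background 12.3%), Cdt1 and Pold1. With the longest transcript the counts were 13 and 2, and with the summed exons 16 and 4. In the order of these 3 settings 25.3%, 26.4% and 29.5% of all tested genes were called in either direction. The same 8 genes were called higher with the deposited scaling and with each of the 3 trends removed: Mcm6, Mcm7, Gins1, Gins2, Pcna, Rfc2, Slbp and Tyms. Of the 5 genes that fell, Pold1 was called lower in all of these settings. Technical and biological effects of length cannot be told apart here. Removals below use the protein-coding length unless another length is named.

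**Figure D2:**
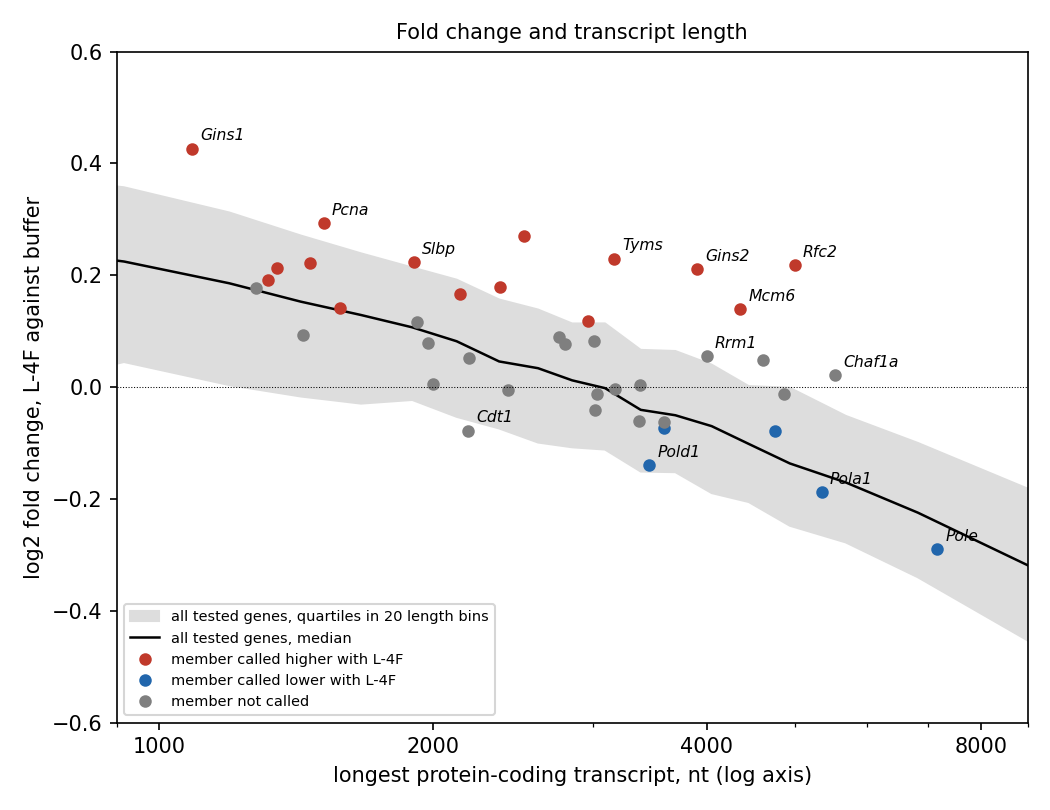
Log2 fold change (vertical axis) against the length of the longest protein-coding transcript (horizontal log axis, nt) for the 41 genes, over the median (line) and quartiles (band) of all tested genes in 20 length bins. Among the genes above the band are Gins1, Pcna, Tyms, Gins2, Mcm6 and Rfc2, and also Cdc6 and Chaf1a, which were not called. Pola1 and Pole lie close to the line.

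Origin licensing genes went both ways, and most differences were small. Of 10 genes 3 rose (30%, background 18.4%), Orc6, Mcm6 and Mcm7, and Mcm4 fell (10%, background 19.7%). The median log2 fold change was 0.00. The MCM2 to MCM7 proteins form the ring in equal parts, and their 6 transcripts were among the most abundant of the set. Per kb of the longest protein-coding transcript they lay within 2381 (Mcm4) to 2962 (Mcm3) normalized counts in buffer and 2263 (Mcm4) to 3007 (Mcm7) with L-4F. The annotated length, not the transcript in use, entered these values, so the order of neighbours is uncertain.

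Mcm6 was at 11487, 11438 and 11330 normalized counts in the buffer libraries and 12685, 12698 and 12339 with L-4F. The groups did not overlap, and the log2 fold change was 0.14 (95% interval 0.09 to 0.19, limma, adjusted p = 3.65e-05). Its value was 0.23 with the protein-coding length trend removed. Mcm7 rose from 8205 ± 237 to 8906 ± 222 normalized counts (SD, n = 3; log2 fold change 0.12, adjusted p = 0.00142). With limma's plain spread estimate, neither trended nor robust, Mcm7 was not called (adjusted p = 0.0794). It shares 321 exon bases with Ap4m1 (898 and 884 normalized counts) and 64 with Cops6 (1991 and 2294), both on the opposite strand. Mcm4 had 8384, 8746 and 8502 normalized counts with buffer and 8131, 8022 and 8214 with L-4F, a log2 fold change of -0.07 (adjusted p = 0.0265). Although its groups did not overlap, the call for Mcm4 ended without L-4F library 2 (adjusted p = 0.0644), buffer library 2 (0.153) or buffer library 3 (0.0575), and with the protein-coding length trend removed (-0.03, adjusted p = 0.38). It was called with the exon trend removed (-0.11, adjusted p = 0.00156).

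Mcm2 (-0.06, 95% interval -0.11 to -0.01, adjusted p = 0.0611), Mcm3 (-0.01, -0.07 to 0.04) and Mcm5 (0.00, -0.04 to 0.05) did not pass. For Mcm3 and Mcm5 the libraries of the groups overlapped, and the intervals reach down to -0.07 for Mcm3 and up to 0.05 for Mcm5. Mcm2 was below all buffer libraries in all 3 L-4F libraries and passed without L-4F library 1 (adjusted p = 0.0408), with median centring (-0.10, 0.00263) and with total-read scaling (-0.08, 0.014). With the protein-coding trend removed Mcm2 was at -0.04 (adjusted p = 0.314), and with the exon length trend removed it had the other sign (0.04, adjusted p = 0.25).

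Among the loaders, Orc6, which encodes the smallest subunit of the origin recognition complex, rose from 1311, 1204 and 1248 to 1356, 1516 and 1520 normalized counts (log2 fold change 0.22, 95% interval 0.11 to 0.33, adjusted p = 0.00209). Its lowest L-4F library was only just above its highest buffer library, and the value was 0.07 with the protein-coding length trend removed (adjusted p = 0.364). Orc6 shares 171 exon bases with Vps35 on the opposite strand, at 3670 and 3594 normalized counts in the groups. Orc1, which encodes the largest subunit, was at 1067 ± 75.6 and 1036 ± 34.8 (SD, n = 3; log2 fold change -0.04, -0.16 to 0.08), and its value was -0.08 (adjusted p = 0.311) after removal of the exon trend. Cdc6 (0.05, -0.03 to 0.13) and Cdt1 (-0.08, -0.16 to 0.00), the loading factors, did not pass with the deposited scaling. With the protein-coding length trend removed Cdc6 was called higher (0.15, adjusted p = 0.00405) and Cdt1 lower (-0.15, adjusted p = 0.00582). Cdt1 was also called lower with median centring (-0.12, adjusted p = 0.0219), and its 3 L-4F libraries (1965 to 2019) lay below the buffer libraries (2049 to 2160).

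**Figure D3:**
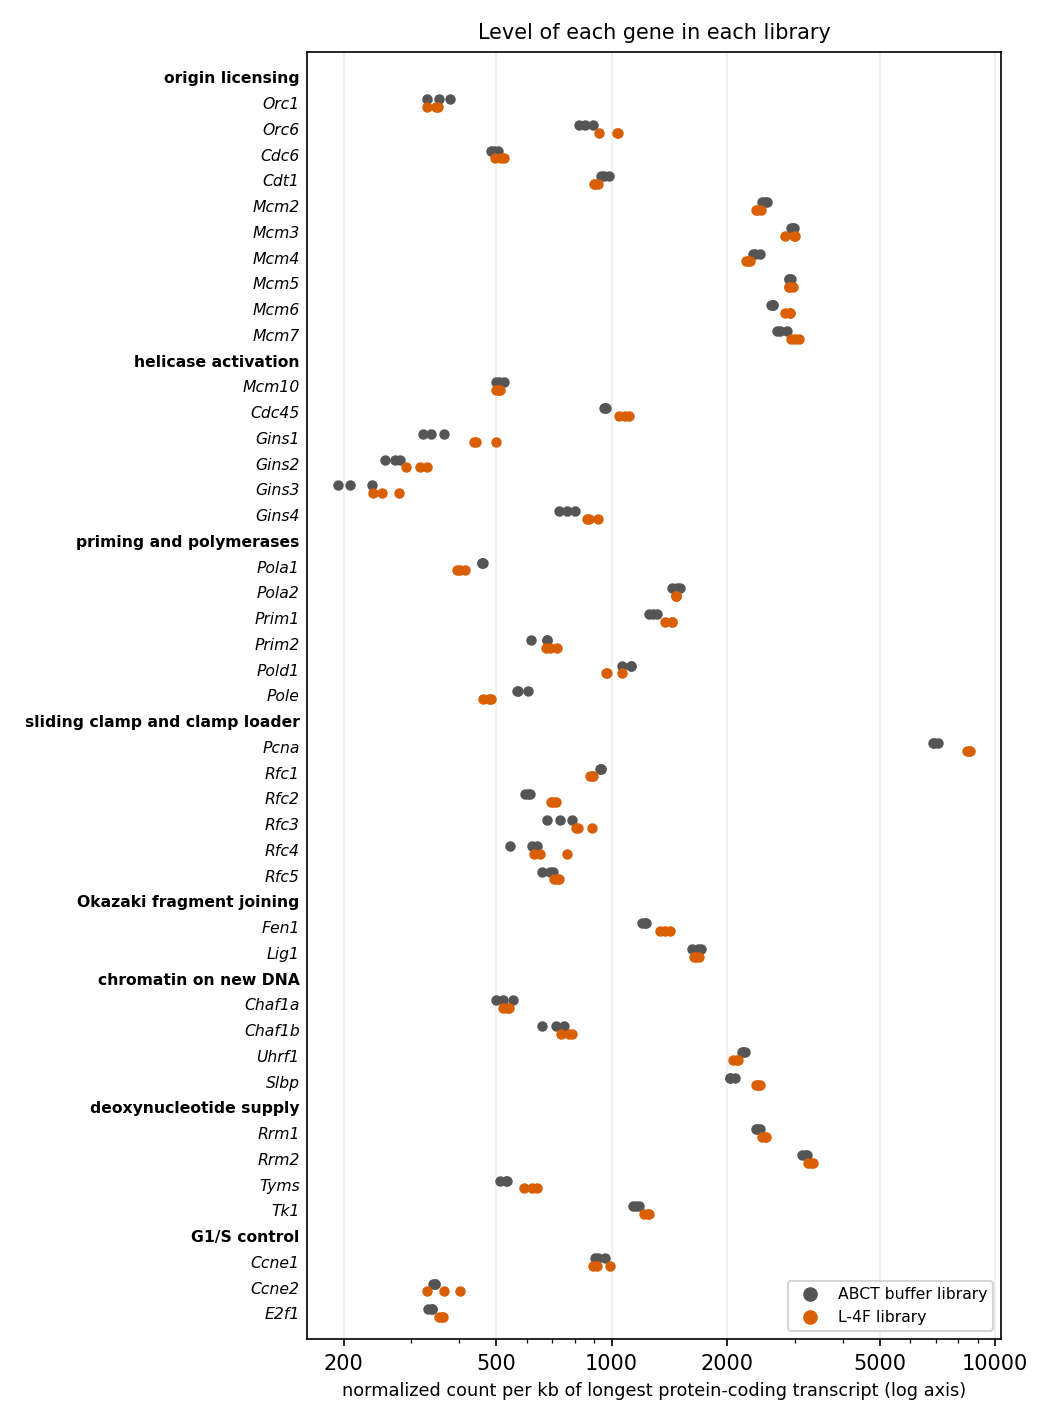
Normalized count per kb of the longest protein-coding transcript (horizontal log axis) in each of the 3 buffer and 3 L-4F libraries (points) for the 41 genes by step. Pcna is the highest by this measure (means 6960 and 8527), the means of Mcm2 to Mcm7 lie close together between 2263 and 3007, and Gins3 (213 with buffer) is the lowest.

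All 4 GINS genes and Cdc45, which complete the helicase, rose with L-4F. The step had 5 genes higher (83.3%, background 18.4%) and none lower (background 19.7%) of 6, with a median log2 fold change of 0.21. Summed over the 6 genes, it went from 7475 to 7634 normalized counts in the buffer libraries to 8272 to 8431 with L-4F. Calls higher numbered 4 of 6 with the protein-coding length trend removed (background 12.9%) and 4 with the exon trend (15.1%), Mcm10 among both. Removal of the longest-transcript trend left 2 (background 13.5%). Gins1 changed most of all 41 genes, from 368, 396 and 351 normalized counts to 542, 477 and 482. Every L-4F library was above every buffer library, a mean rise of 34.5% (log2 fold change 0.43, 95% interval 0.26 to 0.60, limma, adjusted p = 0.000259). Its transcript is also the shortest of the set (1087 nt), and with the protein-coding length trend removed the value was 0.23 (adjusted p = 0.0431).

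Gins2 rose from 1053 ± 48.0 to 1220 ± 76.9 normalized counts (SD, n = 3; log2 fold change 0.21, adjusted p = 0.00502), and the value was 0.27 with the same trend removed. Gins2 was not called with the plain spread estimate (adjusted p = 0.0609). It shares 2758 exon bases with Gse1 on the opposite strand, which was at 2114 and 1739 normalized counts in the groups. The libraries were strand-specific, but the sources used here do not say whether counting used the strand, so this value is uncertain. Gins3 was at 525, 489 and 596 with buffer and 602, 701 and 636 with L-4F (log2 fold change 0.27, adjusted p = 0.0102). The groups nearly met, and the call for Gins3 ended without L-4F library 2 (adjusted p = 0.0593) or buffer library 2 (0.0777), with the plain spread estimate (0.0943), and after removal of the longest-transcript (0.0591) or exon length trend (0.0993). Gins4 rose from 1032 ± 49.8 to 1196 ± 41.4 (log2 fold change 0.21, adjusted p = 0.00314). Its value was 0.05 with the protein-coding length trend removed (adjusted p = 0.554).

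Cdc45 had 2047, 2070 and 2059 normalized counts with buffer, a narrow spread, and 2379, 2318 and 2239 with L-4F. The log2 fold change was 0.17 (95% interval 0.09 to 0.25, adjusted p = 0.00142), and 0.09 with the protein-coding length trend removed (adjusted p = 0.0961). Cdc45 shares 209 exon bases with Ufd1 on the opposite strand, at 1733 and 1854 normalized counts in the groups. Mcm10, which helps activate the helicase, was at 2483 ± 61.1 and 2461 ± 27.1 (log2 fold change -0.01, -0.09 to 0.06). With the protein-coding length trend removed Mcm10 (4867 nt) was called higher (0.11, adjusted p = 0.034).

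The catalytic subunits of the replicative polymerases fell. Pole, Pola1 and Pold1, which encode the catalytic subunits of polymerases epsilon, alpha and delta, were lower with L-4F, while the primase gene Prim1 rose and Pola2 and Prim2 did not pass (median of the 6 genes -0.07). Pole went from 4340, 4056 and 4087 normalized counts to 3309, 3431 and 3471, so that no L-4F library reached the buffer range. The mean fell by 18.2% (log2 fold change -0.29, 95% interval -0.36 to -0.22, limma, adjusted p = 5.8e-07). Pole has the longest protein-coding transcript of the 41 genes (7163 nt), and the call ended after removal of the length trend by protein-coding (-0.05, adjusted p = 0.245), longest transcript (-0.06, 0.157) or exon length (-0.09, 0.0557).

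Pola1 was at 2448, 2466 and 2460 normalized counts with buffer and 2152, 2211 and 2112 with L-4F, again without overlap (log2 fold change -0.19, -0.26 to -0.11, adjusted p = 0.000313). It was not called with the protein-coding length trend removed (-0.04, adjusted p = 0.444). Pold1 had 3877, 3665 and 3883 with buffer and 3677, 3360 and 3341 with L-4F. One L-4F library lay within the buffer range, and the log2 fold change was -0.14 (-0.22 to -0.06, adjusted p = 0.00574). Pold1 was called lower with each length trend removed, but not with quantile normalization (-0.09, adjusted p = 0.092) or with the plain spread estimate (adjusted p = 0.113).

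Prim1, the catalytic primase subunit, rose from 2032 ± 50.1 to 2241 ± 57.3 normalized counts (SD, n = 3; log2 fold change 0.14, adjusted p = 0.00656). Its longest protein-coding transcript is 1583 nt, and with that length trend removed the value was 0.01 (adjusted p = 0.936). Prim1 was still called higher with the longest-transcript (0.13, adjusted p = 0.0183) or the exon length trend removed (0.12, 0.0248). Prim2, the regulatory primase subunit (0.08, -0.03 to 0.19), and Pola2, the second subunit of polymerase alpha (-0.01, -0.07 to 0.06), did not pass with the deposited scaling. After removal of the exon length trend both were called higher (Prim2 0.15, adjusted p = 0.0361; Pola2 0.13, adjusted p = 0.00299). With the protein-coding trend removed both were below 0 and not called (Prim2 -0.02, adjusted p = 0.862; Pola2 -0.06, adjusted p = 0.213).

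**Figure D4:**
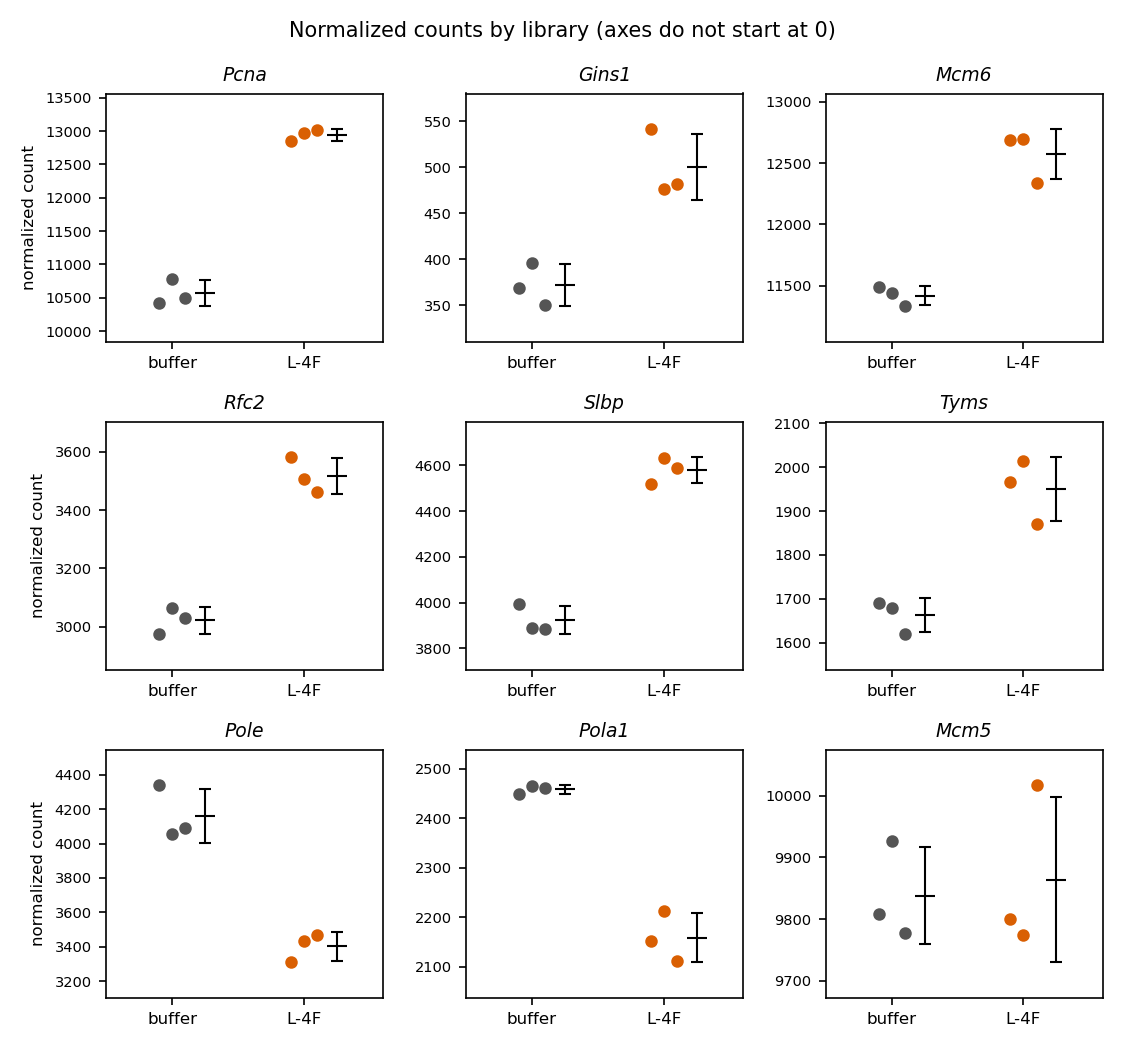
Normalized count (vertical axes, which do not start at 0) in each library for 9 genes, with the mean and SD of the 3 libraries beside the points. For 8 genes no L-4F library falls within the buffer range, and for Mcm5 (9838 ± 79.0 and 9864 ± 134) the groups overlap.

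The sliding clamp gene rose, and its loader split by subunit. Pcna, whose product rings the DNA and tethers polymerases, went from 10418, 10788 and 10492 normalized counts to 12847, 12965 and 13018. All L-4F libraries stood well above the buffer libraries, with a mean rise of 22.5% (log2 fold change 0.29, 95% interval 0.25 to 0.34, limma, adjusted p = 1.2e-09). The value was 0.15 with the protein-coding length trend removed (adjusted p = 2.87e-05). Reads may be shared with the processed pseudogene Pcna-ps2, which was at 595 and 658 normalized counts in the groups.

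Rfc1 encodes the large subunit of replication factor C, which opens the clamp, and Rfc2 to Rfc5 the small ones. Rfc2 rose from 2974, 3066 and 3030 normalized counts to 3582, 3507 and 3461, without overlap (log2 fold change 0.22, 95% interval 0.15 to 0.29, adjusted p = 1.35e-05). Its annotated transcript is long (4995 nt), and its value was 0.34 with the protein-coding length trend removed. It shares 952 exon bases with Lat2 on the opposite strand, at 106 and 132 normalized counts. Rfc3 rose from 967 ± 71.6 to 1104 ± 55.1 (SD, n = 3; log2 fold change 0.19, adjusted p = 0.0149). The call for Rfc3 ended without L-4F library 1 (adjusted p = 0.0836) or buffer library 1 (0.115), with median centring (0.0537), with the plain spread estimate (0.101) and with the protein-coding length trend removed (0.03, 0.803).

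Rfc4 (0.18, 0.02 to 0.34, adjusted p = 0.0761) and Rfc5 (0.08, -0.01 to 0.16, adjusted p = 0.151) did not pass. Rfc4 passed without L-4F library 1 (0.23, adjusted p = 0.0341) and was at 0.01 with the protein-coding length trend removed. It shares 194 exon bases with Eif4a2 on the opposite strand, at 13786 and 14365 normalized counts, so its value is uncertain. Rfc1 fell from 4436, 4468 and 4456 to 4180, 4213 and 4258 normalized counts (log2 fold change -0.08, -0.14 to -0.02, adjusted p = 0.0352). The groups did not overlap, but leaving out any library other than L-4F library 3 ended the call for Rfc1 (adjusted p from 0.058 to 0.0948). It was at 0.033 with the protein-coding length trend removed and at -0.03 with quantile normalization.

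Of the pair of genes that finish Okazaki fragments, the flap nuclease gene rose and the ligase gene did not pass. Fen1 was at 2897, 2914 and 2840 normalized counts with buffer and 3167, 3265 and 3362 with L-4F, without overlap. The log2 fold change was 0.18 (95% interval 0.11 to 0.25, limma, adjusted p = 0.000244). Fen1 was not called (0.07, adjusted p = 0.155) after removal of the exon length trend. On the opposite strand it shares 1909 exon bases with Gm10143 (3.2 and 5.2 normalized counts) and 130 with Tmem258 (947 and 1171). Lig1 was at 5290 ± 140 and 5277 ± 67.6 (SD, n = 3; log2 fold change 0.00, -0.06 to 0.06).

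On new DNA, the histone mRNA-binding gene rose while the chromatin assembly genes did not pass. Slbp, whose product binds the stem-loop of replication-dependent histone mRNAs, had 3994, 3889 and 3885 normalized counts with buffer and 4521, 4632 and 4590 with L-4F. The groups lay far apart against a narrow spread (log2 fold change 0.22, 95% interval 0.16 to 0.29, limma, adjusted p = 2.98e-06), and the value was 0.12 with the protein-coding length trend removed. Chaf1a and Chaf1b encode the large and middle subunits of chromatin assembly factor 1. Chaf1b (0.12, 0.01 to 0.22, adjusted p = 0.0854) passed without L-4F library 2 (0.0496) or buffer library 3 (0.0322). Its value was 0.01 with the protein-coding length trend removed (adjusted p = 0.876). Chaf1a was at 2902 ± 153 and 2944 ± 53.6 (log2 fold change 0.02, -0.06 to 0.10), but was called higher with the protein-coding length trend removed (0.18, adjusted p = 0.00112). It shares 4648 exon bases with Ubxn6 on the opposite strand, at 854 and 1041 normalized counts, so its value is uncertain. Uhrf1, which guides maintenance DNA methylation, was at 7901 ± 90.2 and 7562 ± 124 (log2 fold change -0.06, -0.12 to -0.01, adjusted p = 0.0521). Its L-4F libraries were all below the buffer libraries, and it passed with limma-voom on the recovered reads (adjusted p = 0.0473), with median centring (-0.10, 0.00181), with total-read scaling (-0.08, 0.0109) and without L-4F library 2 (0.0361). With the protein-coding length trend removed Uhrf1 was at -0.02 and not called (adjusted p = 0.543), and with the exon length trend removed it was called lower (-0.07, 0.0422).

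In deoxynucleotide supply all 4 genes had every L-4F library above every buffer library (background 23.2% of all tested genes). Of the 4 genes 1 was called higher (25%, background 18.4%). Tyms, thymidylate synthase, which makes the thymidine nucleotide, rose from 1691, 1680 and 1619 normalized counts to 1965, 2015 and 1872. Its log2 fold change was 0.23 (95% interval 0.14 to 0.32, limma, adjusted p = 0.000188) and 0.24 with the protein-coding length trend removed. The salvage kinase gene Tk1 was at 1667 ± 32.8 and 1779 ± 30.0 (SD, n = 3; log2 fold change 0.09, 0.01 to 0.18, adjusted p = 0.0831), and at -0.06 with that trend removed. With the exon length trend removed it was called higher (0.13, adjusted p = 0.0198). The ribonucleotide reductase genes Rrm1 (0.05, 0.01 to 0.10, adjusted p = 0.0689) and Rrm2 (0.05, 0.00 to 0.11, adjusted p = 0.124) did not pass. Rrm1 went from 9533, 9592 and 9737 to 10022, 10080 and 9880 normalized counts, and was called higher with the protein-coding length trend removed (0.12, adjusted p = 0.000389) and with quantile normalization (0.08, 0.0121). Rrm2 passed with quantile normalization (0.10, adjusted p = 0.005) and was at -0.02 with the protein-coding length trend removed.

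None of the 3 genes of G1/S control passed. Cyclin E drives the kinase CDK2 at the start of S phase. Ccne1, one of its genes, was at 1844, 1922 and 1814 normalized counts with buffer and 1836, 1982 and 1789 with L-4F, with full overlap (log2 fold change 0.01, 95% interval -0.09 to 0.10, limma, adjusted p = 0.932). Ccne2 was at 1027, 1041 and 1042 with buffer, and its L-4F libraries (992, 1213 and 1101) spread on both sides of them (0.08, -0.05 to 0.21). Ccne2 passed without L-4F library 1 (0.16, adjusted p = 0.0488). It shares 609 exon bases with Ints8 on the opposite strand, at 1693 and 1562 normalized counts in the groups. E2f1, an activating E2F factor, was at 930 ± 13.3 and 990 ± 11.3 (SD, n = 3). Its groups did not overlap, and the log2 fold change of 0.09 (-0.02 to 0.20) had an adjusted p of 0.199. With each of the length trends removed none of the 3 genes passed. Ccne1 was at -0.09 with the protein-coding trend removed (adjusted p = 0.175). With the exon trend removed Ccne2 was at 0.04 and E2f1 at 0.03.

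**Figure D5:**
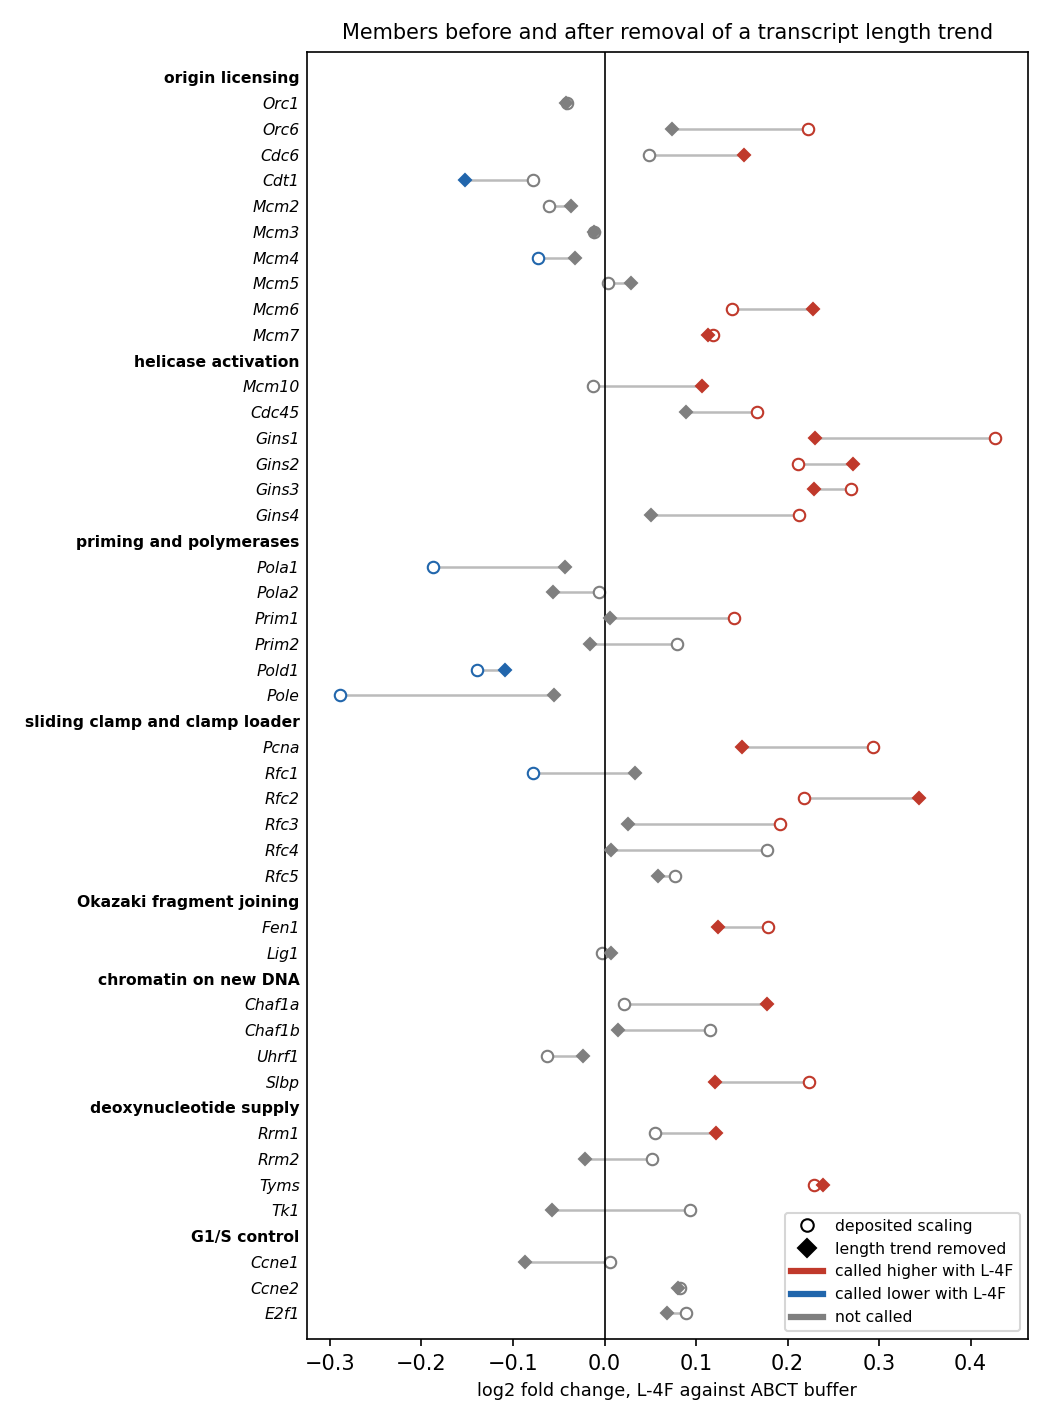
Log2 fold change of the 41 genes with the deposited scaling (open circles) and with a trend in protein-coding transcript length removed (diamonds), coloured by the limma call in each. Pole moves from -0.29 to -0.05 and Gins1 from 0.43 to 0.23, while Tyms (0.23 and 0.24) and Mcm7 (0.12 and 0.11) stay in place.

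Other genes of the pathway, from lists that do not share members with the 41, also went both ways. Of all tested genes 18.4% were called higher and 19.7% lower. With the protein-coding length trend removed these background shares were 12.9% and 12.3%. Among 24 other fork genes 11 rose and 3 fell (45.8% and 12.5%, median log2 fold change 0.10). With the protein-coding length trend removed 7 rose and 2 fell. Pclaf, a PCNA-binding factor (0.25), and Rpa2, a subunit of the single-strand binding protein RPA (0.31), rose. Top1, topoisomerase 1, fell (-0.20, limma, adjusted p = 2.5e-05), but was not called with the exon trend removed (-0.01, adjusted p = 0.775). Of 15 other origin genes 3 rose and 6 fell (20% and 40%, median -0.02), and with the protein-coding trend removed none rose and 2 fell. Gmnn, geminin, the inhibitor of CDT1, rose (0.32, adjusted p = 2.94e-05). Its value was 0.13, not called, with that trend removed. Topbp1, which helps activate origins, fell (-0.20), was at -0.07 in that setting and was not called with the exon trend removed (0.00, adjusted p = 0.967). Mcm9, a relative of the MCM ring genes, fell (-0.27) and was at -0.15, not called, with the protein-coding trend removed. Of 10 other chromatin assembly genes 5 rose and 3 fell (50% and 30%), and 3 and 1 did so with that trend removed. The histone chaperone gene Nasp was at 0.23 and Rbbp4, another, at 0.15 (0.24 with that trend removed). The maintenance methyltransferase gene Dnmt1 was at -0.27 (-0.10 with that trend removed).

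Of 16 tested genes in the list of other deoxynucleotide enzymes 6 rose (37.5%, background 18.4%) and 4 fell (25%, background 19.7%). Their median was -0.02. Removal of the protein-coding length trend turned the balance to 4 called higher (background 12.9%) and 6 lower (background 12.3%). Cad, which starts pyrimidine synthesis, fell from a mean of 7495 to 5748 normalized counts (n = 3 per group; log2 fold change -0.38, SE 0.026, limma, adjusted p = 1.79e-10), and its value was -0.15 with the protein-coding length trend removed. Ctps2, a CTP synthase gene (0.23), rose. Dut, the dUTPase gene, rose (0.23, and 0.13 with that trend removed). Of 27 other G1/S regulators 8 rose and 8 fell (29.6% each, median -0.06). Under median centring, which moved the median of all tested genes to -0.04, 13 fell. The counts were 8 and 6 after removal of the protein-coding length trend. The retinoblastoma gene Rb1 fell from a mean of 1683 to 1301 (log2 fold change -0.37, SE 0.049, adjusted p = 2.61e-06) and was at -0.26 without the trend. Ccnd3, a D-type cyclin, rose (0.22, and 0.14 without the trend). Cdk6, a partner kinase of the D-type cyclins, fell (-0.26) but was called higher without the trend (0.11), and was not called with the exon trend removed (adjusted p = 0.908). Ccnd2, another D-type cyclin, fell (-0.09) but was called higher with each length trend removed (0.08 with exons, 0.11 with the protein-coding length). E2f8, a repressing E2F factor, fell (-0.26), and Ccna2, cyclin A2, rose (0.13). E2f4 (-0.07, adjusted p = 0.0984), E2f7 (-0.01), Cdk2 (0.02) and Cdkn1b (0.01) did not pass with the deposited scaling. E2f4 was called lower with each length trend removed (-0.16 with the protein-coding length, adjusted p = 0.00056). Cdkn1b was called higher with the protein-coding (0.11, adjusted p = 0.0112) and the longest-transcript trend removed (0.09, 0.0338), and not with the exon trend removed (0.02, 0.691).

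Genes of G2 and mitosis, the next phase of the cycle, had 7 of 30 higher and 7 lower (23.3% each), near the background of 18.4% and 19.7%, with a median log2 fold change of -0.01. With the protein-coding length trend removed the counts were 7 and 3, and with the exon trend removed 7 and 7. The median of the 41 replication genes was 0.08, and the difference between these lists was not tested. With the protein-coding length trend removed the medians were 0.03 for both lists. Mki67, the gene of the proliferation antigen Ki-67, fell from a mean of 23823 to 19522 normalized counts (n = 3 per group; log2 fold change -0.29, SE 0.019, limma, adjusted p = 1.17e-10). Its transcript is 10061 nt long, and it was at 0.05 and not called with the protein-coding trend removed, but called lower with the exon trend removed (-0.11). Cdk1, the mitotic kinase (0.28), and Birc5, survivin (0.31), rose, and were at 0.37 and 0.33 with the protein-coding trend removed.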

How the data were processed

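RNA of 3 L-4F and 3 ABCT buffer libraries was sequenced from strand-specific TruSeq libraries, per the labels' protocols. StringTie 1.3.1c and FastQC 0.11.5 and 0.11.2 are named in the submitters' processing notes. The aligner, build, annotation and strand setting are not named in these sources. The authors deposited 1 log2 value per gene and library for 24559 genes. Dividing out a factor per library (0.899 to 1.13) and subtracting 1 gave whole reads for 100% of the values within 0.01 read, so the values are log2(normalized count + 1). The authors' table also held their log2 fold change, p-value and FDR.

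The 41 members, the gene lists and the tests were chosen with earlier results of these data known. All 41 members are described. From each other list, the 3 genes of smallest adjusted p were named, and E2f4, E2f7, E2f8, Rb1, Cdkn1b, Ccnd2, Ccnd3, Ccna2, Cdk2 and Mki67 whatever their result. Another gene that this rule names is not reported here. Groups came from the titles. The test was limma 3.58.1 (with statmod 1.5.0, in R 4.3.3), using a trended robust spread and a group term, on the 14922 genes that reached 10 normalized counts in 3 or more libraries, with p-values adjusted by Benjamini-Hochberg. Intervals are 95% intervals of that fit, and fold changes use a pseudocount of 1. Lengths came from GENCODE M21 (GRCm38), matched by identifier, and may differ from the authors' annotation. Length trends were removed by robust loess (span 0.3) of each library's deviation from the gene mean, with the protein-coding length added after the data were seen. The other alternatives were median centring, total-read scaling, a filter at 10 CPM, no filter, quantile normalization, limma's plain spread, limma-voom on the recovered reads, a pseudocount of 0.1, GC trend removal, the replicate number as a block, and each library left out. Library pairs differed by 2.18 to 2.71 times counting noise within groups and 7.54 to 8.93 times between them, so none was a copy. The procedure was tested on simulated data.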

Additional observations from a re-analysis of the deposited data

How the results depend on the processing

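The number of the 41 genes called higher (15) stayed within 10 to 18 over the 19 alternatives, and was 14 to 16 with 1 library left out. The number called lower (5) was 8 with median centring, 2 with quantile normalization, 2 with limma's plain spread estimate, and 2 with the longest-transcript or the protein-coding length trend removed. It was 3 to 5 with 1 library left out, with 3 called without buffer library 2 or buffer library 3. Median centring also moved the median log2 fold change of all tested genes to -0.04, and quantile normalization to 0.01. Of the 15 genes called higher 6 kept their call and direction in all 19 alternatives (Mcm6, Gins1, Pcna, Rfc2, Slbp and Tyms), and none of the 5 called lower did. The sign turned for Rfc1, at 0.016 with the longest-transcript and 0.033 with the protein-coding trend removed. Mcm10 was called higher at 0.11 with the exon or protein-coding trend removed, and Pola2 at 0.13 with the exon trend removed. The cause was not tested. Among the 21 genes not called, values of the other sign that were also not called occurred 34 times in 399. Over all genes the number called lower went from 2947 to 1922 with the longest-transcript trend removed and to 1840 with the protein-coding trend. With the replicate number as a block 15 genes were called higher and 5 lower, as without it. The correlations of same-numbered libraries were 0.0511, 0.0111 and 0.109, and those of differently numbered libraries lay between -0.0812 and 0.0305. All were small, and whether the libraries were paired cannot be settled from them. At 25073292 to 31332003 reads per library the upper limit for a gene with no read lay between 0.0957 and 0.120 CPM (3 reads, counting error only).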
